A study of Homo sapiens with 4 samples.

Results

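Odd-only peaks are the stretches of the human genome where RNA captured with the odd probe set formed a called peak, and where neither the even probe set nor the LacZ probe set gave a peak sharing a base. They were taken from the odd list as the peaks with 0 bases in common with either other list, strand ignored. There were 399 of them, of 542 odd peaks (73.6%) and of 1766 peaks in the 3 lists together. The series used RD cells, a human line established from an embryonal rhabdomyosarcoma, a tumour of the skeletal muscle lineage. The even and odd sets were biotin-carrying antisense probes against exon 2 of ZNF609, and the LacZ set was aimed at a bacterial mRNA that human cells do not make. Each of the 3 pull-downs was 1 library, and the fourth sample, a total lysate named Input, was not analysed here. No genotype or drug treatment set the groups apart. RD is 1 established line, so the lists describe that line.

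Exon 2 of ZNF609 is the exon that is back-spliced into circ-ZNF609, a circular RNA. In an antisense pull-down, probes hybridise to their target in a lysate, biotin is used to retrieve them, and RNA that comes down with the target or with the probes is sequenced. Probe sets that bind different stretches of 1 target are commonly used side by side, and RNA retrieved by a single set is commonly set aside as not shared. A peak here is a bin of 170 bases, or a run of adjacent bins, where the peak caller found more reads than its model allowed. A missing peak does not show that reads were missing.

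Sequence could be read for the few odd-only peaks that reach the bases just before an annotated gene start, from the RefSeq promoter table on GRCh38.p14, whose windows hold 250 bases upstream of a start. Of the 399 peaks, 11 had a base in such a stretch, and 0 overlapped a miRNA hairpin of the RefSeq table. Below are 4 of these windows, read 5′ to 3′ on the strand of the gene named, with the bases that lie inside the odd-only peak in capitals. SARNP and SURF6 are shown as examples, not the only ones, of a peak that runs across the start of the gene itself. The start of the antisense gene ODF2-AS1 is shown because it lies inside ODF2, which held 5 odd-only peaks. CXXC4 is shown because its window held the longest stretch inside a peak.
SARNP, chr12:55817725-55817974, minus strand: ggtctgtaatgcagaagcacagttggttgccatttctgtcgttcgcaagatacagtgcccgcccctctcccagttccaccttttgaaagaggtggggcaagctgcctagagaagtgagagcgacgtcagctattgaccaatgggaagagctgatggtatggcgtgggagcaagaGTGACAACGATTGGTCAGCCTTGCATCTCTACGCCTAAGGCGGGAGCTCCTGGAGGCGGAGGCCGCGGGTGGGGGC
SURF6, chr9:133336189-133336438, minus strand: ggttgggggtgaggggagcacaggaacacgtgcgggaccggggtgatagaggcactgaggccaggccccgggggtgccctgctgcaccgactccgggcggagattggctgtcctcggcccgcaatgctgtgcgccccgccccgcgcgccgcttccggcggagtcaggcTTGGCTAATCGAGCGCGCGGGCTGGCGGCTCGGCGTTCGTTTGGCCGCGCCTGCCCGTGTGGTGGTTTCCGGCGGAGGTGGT
ODF2-AS1, chr9:128473013-128473262, minus strand: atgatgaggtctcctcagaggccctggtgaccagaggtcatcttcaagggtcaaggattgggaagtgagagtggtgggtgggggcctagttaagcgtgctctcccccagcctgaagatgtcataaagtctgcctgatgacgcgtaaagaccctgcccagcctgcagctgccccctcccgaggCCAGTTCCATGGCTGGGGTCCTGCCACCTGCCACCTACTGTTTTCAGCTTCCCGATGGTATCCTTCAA
CXXC4, chr4:104494895-104495144, minus strand: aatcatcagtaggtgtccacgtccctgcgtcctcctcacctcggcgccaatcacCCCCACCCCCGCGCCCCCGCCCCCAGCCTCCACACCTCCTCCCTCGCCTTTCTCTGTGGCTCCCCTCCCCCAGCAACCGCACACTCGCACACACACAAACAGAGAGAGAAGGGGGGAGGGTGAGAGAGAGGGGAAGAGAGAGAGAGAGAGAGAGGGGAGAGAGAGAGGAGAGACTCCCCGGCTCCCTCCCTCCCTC

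The SARNP peak, at chromosome 12, 55817631 to 55817800, had 352 reads in its bin, and 76 of its 170 bases lay upstream of the start. In SURF6 the peak at chromosome 9, 133336101 to 133336270, had 599 reads in its bin with 82 bases upstream. The ODF2 peak at chromosome 9, 128472911 to 128473080, had 433 reads, with 68 bases upstream of the ODF2-AS1 start. The stretch before CXXC4 lay in a weaker peak of 131.5 reads per bin that the most overlapping bases gave to CXXC4-AS1, and 196 of its bases were upstream of the CXXC4 start. This CXXC4 stretch carries a run of alternating G and A. GC content over the whole 250 bases was 57.6% at SARNP, 72.8% at SURF6, 58% at ODF2-AS1 and 65.2% at CXXC4, beside a median of 58% over the 35116 windows of the table. In the bases inside the peak alone, which are fewer and lie next to the start, it was 67.1%, 70.7%, 55.9% and 66.8% in the same order. Reads were given per bin and strand was ignored, so reads need not lie on these bases or on the strand printed. Of 4 purine repeats searched on both strands, GGAGGA was found in 8 of the 14 windows that an odd-only peak touched within 250 bases before or 50 after a start, and in 31.8% of all windows. GAGGAG, which can overlap it, was found in 6 of the 14 and in 31.9% of all windows, AGAAGA in 1 and in 16.4%, and GAAGAA in 0 and in 16.5%. Some of the 14 windows overlap each other and some were met by a peak in few bases, so these counts describe the windows and not the peaks. Within the bases inside a peak GGAGGA lay in 3 stretches, GAGGAG in 2, and AGAAGA and GAAGAA in 0.

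The members were chosen by measured values, the peak calls of the 3 lists, so the values behind those calls are described here without a test. Odd-only peaks held 165040 of the 279415 reads in odd peaks (59.1%) and covered 101490 bases. Their reads per bin, the number of reads in a 170-base bin or the mean over joined bins, ranged from 105 to 2062 with a median of 202 and quartiles of 147 and 307.5. The 143 odd peaks that shared bases with an even or LacZ peak, from the same library, ranged from 114 to 2324 with a median of 288.5. The median of the shared peaks differed with the list they met. It was 225.5 for the 49 peaks shared with LacZ alone, 268 for the 55 shared with even alone and 477.5 for the 39 shared with both. The ranges of all these classes overlapped that of the odd-only peaks. By the deposited p-value, 95 of the 399 (23.8%, exact Clopper-Pearson 95% interval 19.7 to 28.3) were under 0.001, against 44 of the 143 shared peaks (30.8%, 23.3 to 39.03). Among the shared peaks this was 22.4% of those shared with LacZ alone, 30.9% of those shared with even alone and 41.0% of those shared with both.

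**Figure D1:**
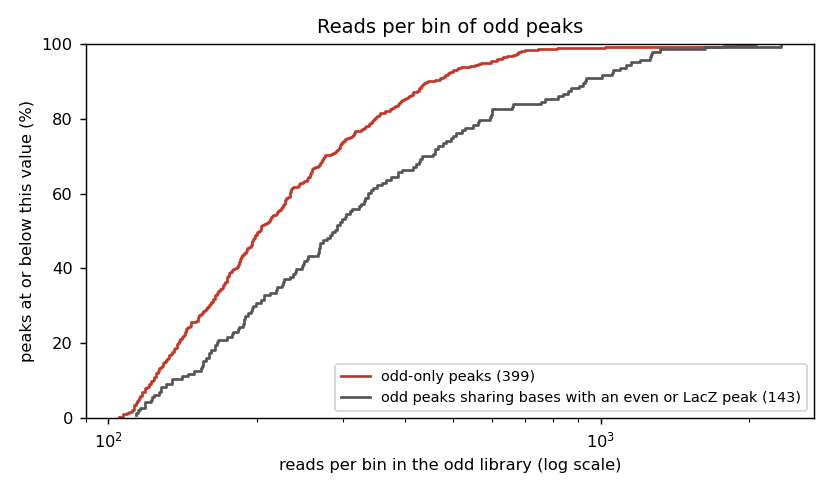
Cumulative share of odd peaks (vertical axis, percent) at or below a number of reads per bin (horizontal axis, log scale) for the 399 odd-only peaks and the 143 odd peaks that share bases with an even or LacZ peak. The odd-only curve lies to the left, with a median of 202 against 288.5.

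At the edge of the rule, 5 odd-only peaks touched an even or LacZ peak without sharing a base. In PNN, which encodes a splicing-associated desmosomal and nuclear protein, the peak had 138 reads and touched an even peak. PPIG, a nuclear cyclophilin, had 163.5 reads per bin and also touched an even peak. JUN, a subunit of the AP-1 transcription factor, had 286 reads per bin, the spectrin gene SPTBN1 219, and PRELID1 167, each beside a LacZ peak. Outside the rule, 70 odd peaks shared a single bin in sum with the other lists, which is the whole peak where it was 1 bin wide. By position the leading ones lay in SRRM1 (926.5 reads per bin), SRSF4 (360 and 497), ZCCHC17 (1125) and FABP3 (838). The SRSF4 and ZCCHC17 peaks were 1 bin wide and shared 100% of their bases with a LacZ peak. SRRM1 shared 50% with an even peak and FABP3 50% with a LacZ peak. An even or LacZ peak lay within 200 bases of 9 odd-only peaks, within 1000 bases of 26 and within 10000 bases of 92. The median distance to the nearest one was 260100 bases. The LacZ list is the longest, with 722 peaks against 502 even peaks, and the nearer neighbour was a LacZ peak for 254 of the 399.

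The leading odd-only peaks differed with the measure used to rank them. Among the lowest p-values, TCEAL9, at chromosome X, 103357111 to 103357280, had 680 reads and a deposited p-value of 8.54e-08, rank 4 of the odd list. An even peak lay 340 bases from this TCEAL9 peak. ODF2, an outer dense fibre protein that is also found at centrioles, had 678 reads per bin at chromosome 9, 128471211 to 128471550, with a deposited p-value of 6.08e-07. ITSN1, an endocytic scaffold, had 479 reads at chromosome 21, 33794301 to 33794470, with a deposited p-value of 9.50e-07, and a peak of 431 reads at 33797361 to 33797530. Further peaks among the 10 lowest p-values lay in HMGN1P38 (695 reads per bin), PLXNA1 (543), TCHP (482 and 427) and HMGN1 (689). The PLXNA1 peak had an even peak 680 bases away.

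By reads per bin the order began elsewhere. GIGYF2, which encodes a translational repressor, had 2062 reads at chromosome 2, 232816871 to 232817040, yet ranked 386 by p-value. DNMT1, the maintenance DNA methyltransferase, had 1884 reads at chromosome 19, 10166681 to 10166850, and ranked 380. This was 1 of 4 odd peaks in DNMT1, which also had 1 even and 2 LacZ peaks. HMGN1, a nucleosome-binding protein, had 1768 reads at chromosome 21, 39348881 to 39349050, and ranked 102. SORCS2 followed with 1021.5 reads per bin, EPB41L2, a band 4.1 family protein, with 815, the acetyltransferase gene KAT6A with 745 and the membrane-actin linker MSN with 701. Peaks in HMGN1P38, in HMGN1 at 689 reads and in TCEAL9 completed the 10, so 3 peaks were in both sets of 10. Of the 20 strongest odd peaks by p-value 9 were odd-only, and of the 20 strongest by reads per bin 4 were. Over the whole odd list 399 of 542 peaks were odd-only (73.6%), a higher share than in either set of 20.

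Column 8 of the lists, an unnamed score of each bin, moved with this change of order. It took whole multiples of 1/4434 in most peaks, called steps here, and a fixed value of 0.01 in some bins. The GIGYF2, DNMT1 and HMGN1 peaks with the most reads had scores of 0.0259, 0.0250 and 0.0192, the highest of the 399. The ITSN1 peaks at ranks 9 and 16 had the lowest score found in the 3 lists, 1 step. Among the 232 odd-only peaks 1 bin wide, the lowest read number was 105 in the 29 peaks at 1 step, 136 in the 54 at 10 to 19 steps, and 276 in the 17 at 40 or more steps. The 7 single-bin peaks at the fixed value began at 300 reads. Across these 232 peaks reads per bin and column 8 had a Spearman rho of 0.64, and the points share 1 library and the caller's threshold. Among these single-bin peaks, bins with a high score thus had many reads, while bins with a low score had few or many. The median score was 0.00203 over odd-only peaks and 0.00361 over shared odd peaks. The fixed value lay under 20 odd-only peaks (5.01%, 3.09 to 7.64) and 2 of 143 shared odd peaks (1.40%, 0.17 to 4.96), against 52 of 374 even-only peaks (13.9%, 10.6 to 17.8) and 163 of 599 LacZ-only peaks (27.2%, 23.7 to 31.0).

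**Figure D2:**
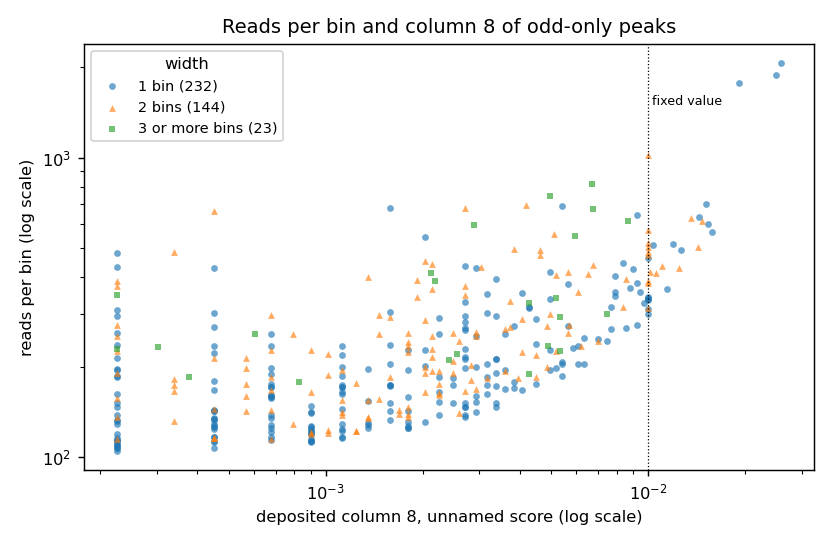
Reads per bin (vertical axis, log scale) against deposited column 8 (horizontal axis, log scale) for the 399 odd-only peaks, 1 point per peak, with width in bins as the symbol. The lower edge of the points rises with column 8, and the 3 points at the upper right are HMGN1, DNMT1 and GIGYF2.

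Most odd-only peaks were narrow. A single bin made up 232 of the 399 (58.1%, 53.1 to 63.04), 2 bins 144 (36.1%), and 3 or more bins 23 (5.76%, 3.69 to 8.52). Among shared odd peaks 60 of 143 were 1 bin wide (42.0%, 33.8 to 50.5), and 20 were 3 bins or wider (13.99%, 8.76 to 20.8). A wide peak has more bases that another list can meet, so the rule itself favours narrow peaks. The share 1 bin wide was 54.0% (48.8 to 59.1) in even-only and 48.7% (44.7 to 52.8) in LacZ-only peaks. The widest odd-only peak spanned 7 bins in TSNARE1, at chromosome 8, 142222341 to 142223530, with 412 reads per bin. POLR3D, a subunit of RNA polymerase III, had a peak of 5 bins with 548 reads per bin at chromosome 8, 22247731 to 22248580. Peaks of 4 bins lay in SORCS2, with 597.5 reads per bin, and in UBE2Q1, a ubiquitin-conjugating enzyme, with 230. The 19 peaks of 3 bins were tied for the next place, which went by position to EIF2B5, a translation initiation factor subunit, with 235 reads per bin, and others lay in ACIN1, CHD4, COL4A1 and NUMA1.

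**Figure D3:**
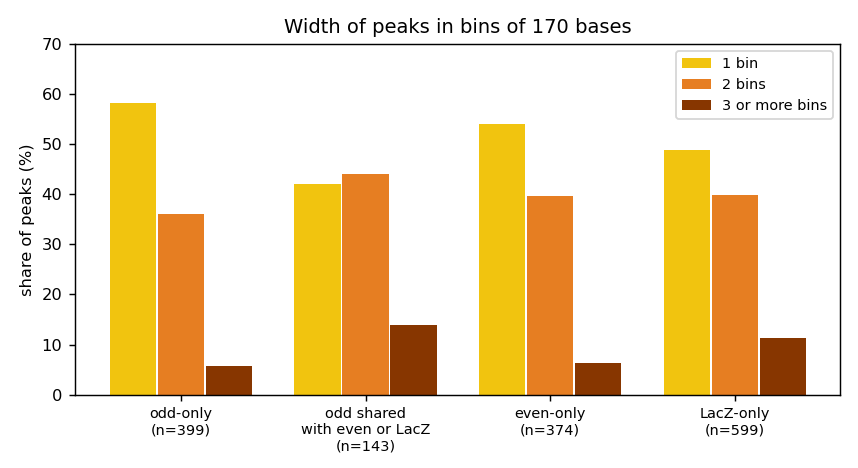
Share of peaks (vertical axis, percent) that were 1 bin, 2 bins, or 3 or more bins wide in the odd-only, shared odd, even-only and LacZ-only classes (horizontal axis, with the number of peaks). Single bins made up 58.1% of odd-only and 42.0% of shared odd peaks.

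Placed by the gene spans of RefSeq on GRCh38.p14, 386 of the 399 odd-only peaks lay in protein-coding genes (96.7%, 94.5 to 98.3). The same share was 99.3% (96.2 to 99.98) for shared odd peaks, 93.05% (89.98 to 95.4) for even-only and 81.6% (78.3 to 84.7) for LacZ-only peaks. With 1 library per probe set, none of these differences has a replicate check. Exon and UTR positions were not used here. Of the same 399 peaks, 37 (9.27%) lay in more than 1 gene, and without strand their genes could not be told apart. Where the promoter table gave the strand of the gene, for 326 peaks, the middle of the peak lay past 50% of the gene span, counted from the 5′ end, for 215 (66.0%, 60.5 to 71.1), past 90% for 58 (17.8%) and before 10% for 28 (8.59%). Shared odd peaks gave 66.1% past the midpoint, even-only 60.2% and LacZ-only 65.7%, so the intervals overlap. Gene spans include introns, so these places are not places in the spliced RNA. The protein-coding genes with an odd-only peak had a median span of 42597 bases, beside 24098 over all protein-coding genes, 47074 for genes with even-only peaks and 45205 for genes with LacZ-only peaks.

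The 13 peaks that were not placed in protein-coding genes were 4 in long noncoding RNA genes, 3 in pseudogenes and 6 outside annotated genes. HMGN1P38, a pseudogene of HMGN1 on chromosome 15, had 695 reads per bin at 92711711 to 92712050, and HMGN1P37 on chromosome X had 155 at 154817131 to 154817470. HMGN1 itself had 2 odd-only peaks, and 38 annotated pseudogenes carry its name, so reads of the gene and its copies may not be separable. ALG1L6P held 115.5 reads per bin. The long noncoding genes were MCPH1-AS1 with 339 reads in a bin at the fixed score, MEF2C-AS1 with 135, CXXC4-AS1 with 131.5 and ABHD16B-AS1 with 119 reads per bin. The 6 peaks outside genes ranged from 119 to 554 reads per bin, the highest at chromosome 17, 73268981 to 73269320. In all, 58 of the 252 genes with an odd-only peak had an annotated pseudogene of their name. The same count was not made for other genes with a peak. The peaks lay on chromosomes 1 to 22 and X, with 0 on chromosome Y and in the mitochondrial genome.

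By gene, 252 genes had an odd-only peak, which is 0.422% of 59774 annotated gene symbols and 29.8% of the 847 genes that any list gave a peak. Of these, 182 had no even or LacZ peak anywhere in the gene and held 267 of the peaks. Another 20 had an even peak elsewhere, 32 a LacZ peak elsewhere, and 18 both. A single odd-only peak was found in 154 genes, 71 had 2, 16 had 3, 6 had 4 and 5 had 5. Reads were spread over many genes, with 17.8% of odd-only reads in the 10 leading ones. Among these were SORCS2 (4433 reads), POLR3D (3510), EPB41L2 (2892), TSNARE1 (2884), COL4A1 (2820), ODF2 (2795), DNAJC21 (2676), HMGN1 (2457) and SRRM2 (2395). POLR3D, DNAJC21 and HMGN1 had no even or LacZ peak. The fixed score lay under each of the 2 odd-only peaks of SORCS2. That gene also had 1 LacZ peak, and a LacZ peak lay 4760 bases from its peak of 1021.5 reads per bin.

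The 98 genes with 2 or more odd-only peaks held 239 of the 399. In 41 of them the closest pair lay under 1000 bases apart, and the median closest gap was 1190 bases. NOP14, a nucleolar factor of small ribosomal subunit assembly, had 5 peaks of 258, 166.5, 234, 144 and 191.5 reads per bin between 2950011 and 2954600 on chromosome 4, with gaps of 510 to 1020 bases. No even or LacZ peak lay in NOP14, and 2 of its peaks also lay in NOP14-AS1. POLR3D had 113, 196, 548, 161.5 and 138 reads per bin over 4760 bases, again with no peak of another list. SRRM2, a large serine and arginine-rich spliceosome protein, had 328, 225.7, 317.5, 368 and 193.5 reads per bin over 5100 bases, and 1 LacZ peak of 176 reads per bin lay among them. ODF2 had 140, 678, 433, 244.5 and 377 over 15470 bases, with 3 LacZ peaks between 71 and 73 reads per bin in the same stretch. A further odd peak of ODF2, of 184 reads per bin, shared bases with a LacZ peak. LacZ reads come from another library and were not scaled to the odd reads, so the 2 cannot be compared in size. RRBP1, a ribosome-binding protein of the endoplasmic reticulum, had 147, 195, 147, 182.5 and 121, with its 1 LacZ peak 22780 bases from the nearest. The remaining odd peak of RRBP1 had 341.5 reads per bin, more than any of these, and shared bases with that LacZ peak.

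Of the 6 genes with 4 odd-only peaks, TCHP, which encodes the keratin-binding and centrosomal protein trichoplein, had 171, 191.5, 482 and 427 reads per bin and 1 LacZ peak. ITSN1 had 511, 407.5, 479 and 431, in 2 pairs 19380 bases apart. The upstream pair had scores of 46 and 29 steps and ranked 191 and 119 by p-value, while the downstream pair at 1 step ranked 9 and 16, with read numbers in the same range. TNIP1, a regulator of NF-kappa-B signalling, had 330, 495, 253 and 199, and DNAJC21, a J-domain cochaperone, 259.5, 450.5, 472 and 312. UBE2Q1 had 134, 110, 230 and 124, and TPR, of the nuclear pore basket, 109, 124, 189 and 186, close to the weakest odd peak of 105. None of the 11 genes with 4 or more odd-only peaks had an even peak. Over all 252 genes with an odd-only peak, 182 had no even or LacZ peak and another 32 had a LacZ but no even peak. Genes with 3 included EPB41L2, COL4A1, MSN, AFF4, SARNP, ACIN1, TNNT2, SRSF11, PRKRIP1, OS9, DNAJC8, RSRC2, SAFB2, MYH10 and KNSTRN, and 13 of the 27 genes with 3 or more had no even or LacZ peak.

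**Figure D4:**
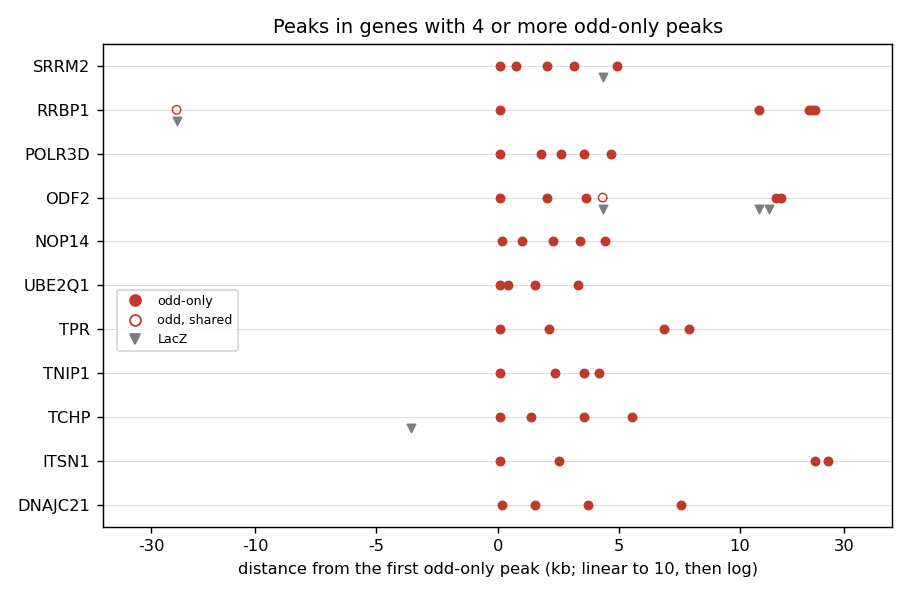
Distance of each peak from the most upstream odd-only peak of its gene (horizontal axis, kb, linear to 10 and then log; lower coordinates first where strand was not given) for the 11 genes with 4 or more odd-only peaks. Filled circles are odd-only peaks, open circles shared odd peaks and triangles LacZ peaks; LacZ peaks occur in SRRM2, RRBP1, ODF2 and TCHP.

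ZNF609, the gene of the target exon, contributed 2 odd-only peaks at chromosome 15, with 174 reads at 64670381 to 64670550 and 230 reads per bin at 64673781 to 64674120. They lay 93.1% and 94.6% along the gene span, and the nearer was 170340 bases from the even peak of the gene. The remaining odd peak of ZNF609, 3 bins wide with 394 reads per bin at 17.8% of the gene span, shared bases with that even peak, which was 4 bins wide. The gene had 0 LacZ peaks. CKAP5 had no odd-only peak.

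The members were then counted in 13 gene lists with 738 annotated symbols. Of these symbols, 207 had a peak in any list and 77 an odd-only peak (37.2%, beside 29.8% over all genes with a peak). Even-only peaks were found in 39.6% and LacZ-only peaks in 36.2% of the 207, beside 28.2% and 43.9% over all genes with a peak. A gene can hold several kinds of peak. The counts carry no test, and a share of 5 to 34 genes has wide counting error.

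Chromatin remodelers and modifiers had the most members, 19 of the 34 with any peak (55.9%), with a median of 336 reads per bin over 27 odd-only peaks, beside 202 over all 399. Even-only peaks lay in 12 and LacZ-only peaks in 14 of the 34. KAT6A had 745 and 125, and SUPT5H, an elongation factor, 634 and 415, with no even or LacZ peak. EED, a Polycomb subunit, had 202 and 216, and the BAF subunit gene ARID1B had 350, also without another list's peak. BRPF1, a scaffold of MYST acetyltransferases, had 372.5 and 336 and an even peak 850 bases away. SMARCA4, the BAF ATPase, had 244 reads per bin and 5 LacZ peaks elsewhere. Further members were BRD2, BRD3, CHD4, CREBBP, DNMT1, EHMT2, EP400, HIRIP3, KMT2B, SMARCC2, SMARCE1 and SUPT6H. Of the 19 genes, 8 had no peak in another list.

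Splicing and RNA-binding genes had 12 members of 33 with any peak (36.4%), with a median of 214.8 over 26 peaks. ACIN1, a protein of exon junction-associated complexes, had 3 peaks of 163 to 326.7 reads per bin, SAFB2 3 of 143 to 204, and RBM5 peaks of 260 and 288.5, each with no even or LacZ peak. HNRNPU, a nuclear scaffold RNA-binding protein, had 489.5 reads per bin, NONO of paraspeckles 403 and PRRC2A 388, also without another list's peak. SRSF11 had 3 peaks of 165 to 514 and 2 even peaks elsewhere. The others were PNN, PPIG, PRRC2C, RSRC2 and SRRM2. Even-only peaks were found in 14 of the 33 genes and LacZ-only peaks in 10.

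For ribosome assembly and the nucleolus, 6 of 23 genes with a peak had an odd-only one (26.1%), while 11 had an even-only one. Besides NOP14, TCOF1, the nucleolar factor treacle, had 446 and 615.5 reads per bin with 2 LacZ peaks elsewhere, and SURF6 had 501.5 and 599 with 3. UTP18 had 176 and 198 and PPAN 185.7, without another list's peak, and MKI67 had 204 with 1 even and 1 LacZ peak elsewhere. Translation and mRNA decay genes had 4 of 11. GIGYF2 was the highest, and ABCF1 (185), EIF4G1 (152) and EIF3A (136) lay below the median of all members. Each of these 4 genes had an even or LacZ peak elsewhere.

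The lists of RNA helicases and of acidic nuclear and high mobility group proteins had 1 member each, of 10 and 12 genes with any peak. These were DDX18, a nucleolar helicase, with 257 and 268.5 reads per bin, and HMGN1. Even-only peaks lay in 7 and 8 genes of these lists. The cohesin, replication and cell cycle list had TP53BP1, a DNA damage response protein, with 334 and 343, as 1 of 10.

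Cytoskeletal genes gave 11 of 22 for actin, myosin and membrane linkers (50%) and 8 of 22 for microtubules, spindle and dynein (36.4%). In the actin list ITSN1, SPTAN1 (227 and 356 reads per bin) and ACTN4 (127) had no peak in another list. MSN had 3 peaks of 273 to 701 and 1 LacZ peak elsewhere, and MYH9, nonmuscle myosin heavy chain IIA, had 365 and 10 LacZ peaks elsewhere. MYH10, its IIB relative, had 3 peaks of 119 to 235 and 2 even peaks elsewhere. AHNAK, CALD1, MYO18A, PLEC and SPTBN1 were the others. Among microtubule genes CLIP1, a plus-end tracking protein, had 197 and 254.5, TPX2, a spindle assembly factor, 184.5, MAP4 124 and CENPF 112, the highest p-value of the odd list, without another list's peak. NUMA1 had 165 and 300, DCTN1, the p150 subunit of dynactin, 190.5 and 196 within 510 bases of an even peak, CEP250 224.5 and GOLGA4 141. NUMA1 and GOLGA4 each had 1 LacZ peak, CEP250 had 2 even and 2 LacZ peaks, and DCTN1 1 of each. LacZ-only peaks were found in 12 of these 22 microtubule genes.

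Muscle genes had 3 members of 6 genes with any peak. TNNT2, cardiac troponin T, had odd-only peaks of 305, 275.5 and 295 reads per bin, but the gene also had 5 even and 5 LacZ peaks. TNNT1, slow skeletal troponin T, had 564 and 490, within 510 bases of an even peak. MEF2D, a transcription factor of the MEF2 family, had 112 and no other list's peak. Of 27 muscle and rhabdomyosarcoma markers 5 had a peak in any list, and 2, TNNT1 and TNNT2, had an odd-only one. MYOD1, MYOG and the others had no odd-only peak. Of 7 blood and immune markers 0 had a peak in any list. Of 4 epithelial markers KRT18 had an odd-only peak of 155.5 reads per bin. As 68 annotated pseudogenes carry its name, reads of this gene and its copies may not be separable.

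The endoplasmic reticulum, secretion and chaperone list had 5 of 11, with HSP90AB1, the constitutive HSP90 gene, at 630 reads per bin and PDIA4 at 114.5 and 178.7 without another list's peak. OS9 and DNAJC8 had 3 peaks each, of 160 to 199 and 228 to 302, and RRBP1 had the 5 peaks given with the clusters. OS9 also had 2 even peaks and DNAJC8 1. The ubiquitin and SUMO list had 2 of 5. UBA2, a subunit of the SUMO-activating enzyme, had 442 reads per bin with rank 28 by p-value, and the ubiquitin ligase UBR4 had 126 and 128.5. The extracellular matrix and adhesion list had 4 of 12. COL4A1, a chain of basement membrane collagen, had 3 peaks of 113 to 614.7 beside 4 even and 3 LacZ peaks elsewhere, COL4A2 had 275 and PLXNA1 543 and 257.5, and TNC with 153 alone had no other list's peak. LacZ-only peaks lay in 8 of these 12 genes.

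**Figure D5:**
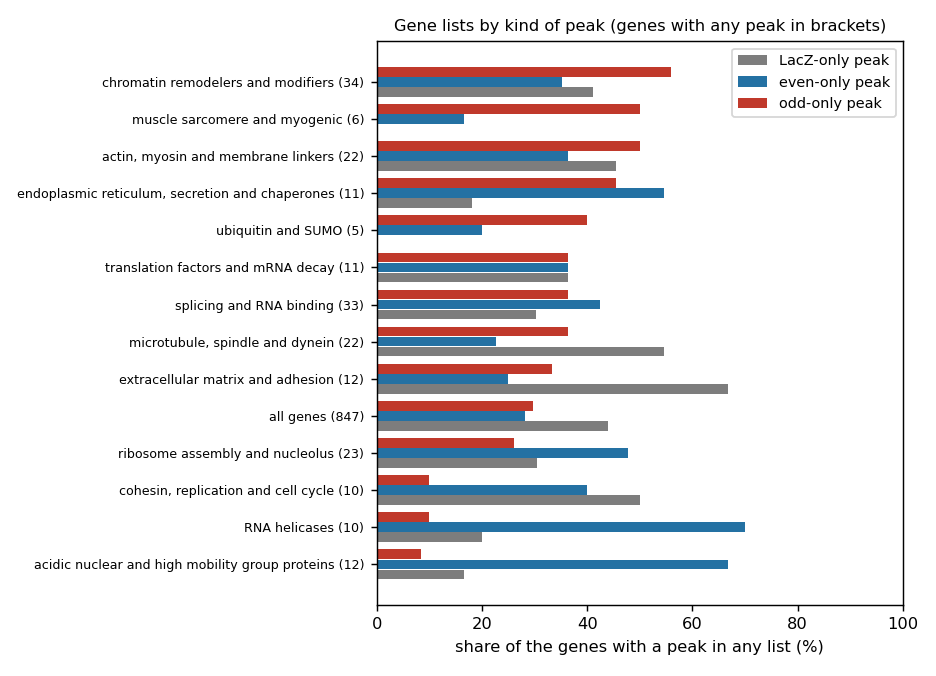
Share of peak-bearing genes (horizontal axis, percent) that had an odd-only, even-only or LacZ-only peak, for 13 gene lists and for all 847 genes with a peak (number of genes in brackets). Chromatin genes have the highest odd-only share, 55.9%, and the helicase, cell cycle and acidic nuclear protein lists the lowest, with 1 gene each.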

How the data were processed

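RNA from 3 pull-downs of RD cells was sequenced, and the deposited peak lists, 1 per library, were analysed. Per the labels' protocols RNA was purified with Qiazol and spin columns and libraries were made with Ovation kits. The submitters' processing notes name GRCh38 and, with no role or order, SAMtools, Picard, bedtools, STAR 2.5.2b, Trimmomatic and bcl2fastq 2.0.2. Per the file names Piranha called the peaks. For its settings, nothing is given in the sources used here. The signal deposited by the authors in column 5 was taken as reads per 170-base bin, because reads per peak were whole in 100% of peaks (tolerance 0.02). The deposited p-value was below 0.01 in each list. Column 8 is a deposited score without a name. Values are not scaled to library size and total depth is unknown, so reads were compared within the odd list. Lists held 542 odd, 502 even and 722 LacZ peaks, with 279415, 482418 and 219401 reads in peaks.

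With Python 3.11.15, pandas 2.3.3 and numpy 2.4.6, odd peaks sharing 0 bases with the other lists were kept. Genes were assigned by RefSeq spans (GRCh38.p14), by most overlapping bases, then protein-coding, then shorter. A share has an exact Clopper-Pearson 95% interval (scipy 1.17.1) that covers counting error only. With 1 library per probe set no test was made. Overlap and gene assignment were tested on simulated data. The members and gene lists were chosen with earlier results of these data known. Genes named were the 10 leading peaks by p-value and by reads, genes with 3 or more odd-only peaks, the 10 with most reads, the 5 widest peaks, list members, peaks not in protein-coding genes, the edges of the rule, ZNF609 and CKAP5. Of the listed symbols, 1 was not in the gene table. Results of 1 gene that this rule names are not reported here.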

Additional observations from a re-analysis of the deposited data

How the results depend on the processing

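The counts and shares were recomputed with other overlap rules, p-value limits and gene assignments. Odd-only peaks numbered 390 when no other peak was allowed within 200 bases, 412 with a reciprocal overlap of 50%, 382 without peaks over the fixed score and 374 in lists limited to 502 peaks, and the other results stayed near their reported values in these settings, as did the gene counts and the coding share with the other gene assignments. A p-value limit of 0.001 changed most of them. Applied to all 3 lists it left 113 odd-only peaks in 77 genes, of which 64 had no other list's peak and 30 were in the gene lists, with 42.5% of peaks 1 bin wide and a median of 348.3 reads per bin. Applied to the odd list alone it left 95 peaks in 64 genes, of which 45 had no other list's peak and 20 were in the gene lists, with 47.4% 1 bin wide and a median of 330 reads. The smaller lists follow from the limit itself. The share in protein-coding genes stayed between 96.5% and 97.6% in all settings. The settings for the gene lists were chosen after seeing the data. A planned description of protein composition was not run, since protein sequences were not used here. No paired analysis was possible because each probe set had 1 library. The lowest reads per bin of a called peak were 105 odd, 108 even and 38 LacZ. Total depth is unknown, so what a missing peak shows cannot be told from it.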
